A study of Homo sapiens with 6 samples.

Results

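HepG2 cells, a human hepatoma line, were exposed to an extract of Scutellaria baicalensis for 12 h, and their gene expression was set against that of control cells on 1 array each. A gene was taken as measured where at least 1 of its probes was well above background and unsaturated on both arrays, by the scanner's own calls, and this held for 12617 of 17476 named genes, read by 18069 probes. The full time course held 6 one-colour Agilent arrays, with 1 array for control cells and 1 each for 1, 3, 6, 12 and 24 h of extract. The 12 h culture received the extract at 100 µg/ml, and the dishes had been seeded a day earlier in Eagle's minimum essential medium with fetal bovine serum, penicillin and streptomycin. The control culture was of the same line and medium, and the labels give neither its vehicle nor its time in culture. All the arrays therefore share the hepatoma background, and no second culture of either kind was analysed here. With 1 array a side no difference has a p-value, and fewer cells and less RNA per cell cannot be told apart. Values below are descriptions of these arrays.

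Scutellaria baicalensis is a plant of the mint family whose roots are rich in flavones such as baicalin, baicalein and wogonin. Flavones and related planar aromatic compounds are known ligands of the aryl hydrocarbon receptor (AhR), a ligand-activated transcription factor that pairs with ARNT and binds the XRE, a short DNA element near genes of drug metabolism. Among its classic targets in liver cells are the monooxygenase CYP1A1 and the receptor's own repressor AHRR, which competes for ARNT. Both were higher on the 12 h array. CYP1A1 had a level of 14.02 at 12 h, against 10.48 in control cells, and AHRR had 7.82 at 12 h, against 4.26 in control cells. A level here is the log2 of the background-corrected signal after quantile normalization over the 6 arrays, which gives every array the same distribution of values.

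The labelled cell line carried hepatocyte products on both arrays. AFP, the fetal serum protein typical of hepatoma cells, had a level of 15.18 at 12 h and 15.25 in control cells. TTR, a thyroid hormone carrier, had 15.74 at 12 h and 15.55 in control cells, and APOA1, the main protein of high-density lipoprotein, had 14.74 and 14.44 in that order. The probe for ALB, serum albumin, was saturated on both arrays, so its levels of 15.70 at 12 h and 15.62 in control cells are only bounds. Of markers of other cells, 11 of 16 haematopoietic genes were measured, with a summed signal (levels taken back to the linear scale) of 5459 at 12 h and 12197 in control cells, and 0 of the 11 were at least 2-fold higher at 12 h. CD4 and CD79A carried that difference, and the other 9 summed to 2109 at 12 h and 2072 in control cells. For 6 of 14 fibroblast and stellate cell genes the sum was 6334 at 12 h and 6727 in control cells, and for 5 of 13 endothelial genes it was 651 at 12 h and 580 in control cells. Of these 5 endothelial genes, STAB2, LYVE1 and VWF were at least 2-fold higher at 12 h and CLDN5 at least 2-fold lower. PTPRC, which encodes the pan-leukocyte antigen CD45, failed the background call in control cells and passed it at 12 h on 1 of its 2 probes. PECAM1, an endothelial adhesion molecule, did so on its 1 probe. They were at least 3.61-fold and 2.93-fold higher at 12 h. STAB1, of sinusoidal endothelium, was at least 28.0-fold higher, on 1 of 2 probes. The endothelial genes ENG and TIE1 passed the call in control cells alone, and were at least 3.71-fold and 1.24-fold lower at 12 h. The part of such transcripts in the results was not tested.

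The 12 h array was dimmer than the control array. The 75th percentile of its processed signal was 420 units, against 768 on the control array, and 65.1% of its spots were well above background, against 70.5% on the control array. Bright corner spots, which carry no RNA of the cells, read 3370 units at 12 h and 10275 on the control array. Quantile normalization removes such a difference and, with it, any overall change in the amount of RNA. The difference of a probe varied with the probe's base composition: its median was -0.07 in the quintile of probes lowest in GC content and 0.24 in the quintile highest in it. The part of these features in single results was not tested.

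Of the 12617 genes, 914 (7.24%) were at least 2-fold higher at 12 h and 1068 (8.46%) were at least 2-fold lower. The median difference of 12 h minus control was 0.09 on the log2 scale, with the 5th percentile at -1.27 and the 95th at 1.13. Scaling by the 75th percentile in place of quantile normalization moved the median to 0.18 and made 1358 genes higher and 956 lower, so that 58.7% of the 2-fold genes were higher under it, against 46.1% in the values used here. Near the limits, 300 genes had a difference from 0.9 to just under 1 and 218 from 1 to just under 1.1, and on the lower side 212 lay just inside -1 and 196 just beyond it. The count of 2-fold genes thus depends on where the limit stands.

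**Figure D1:**
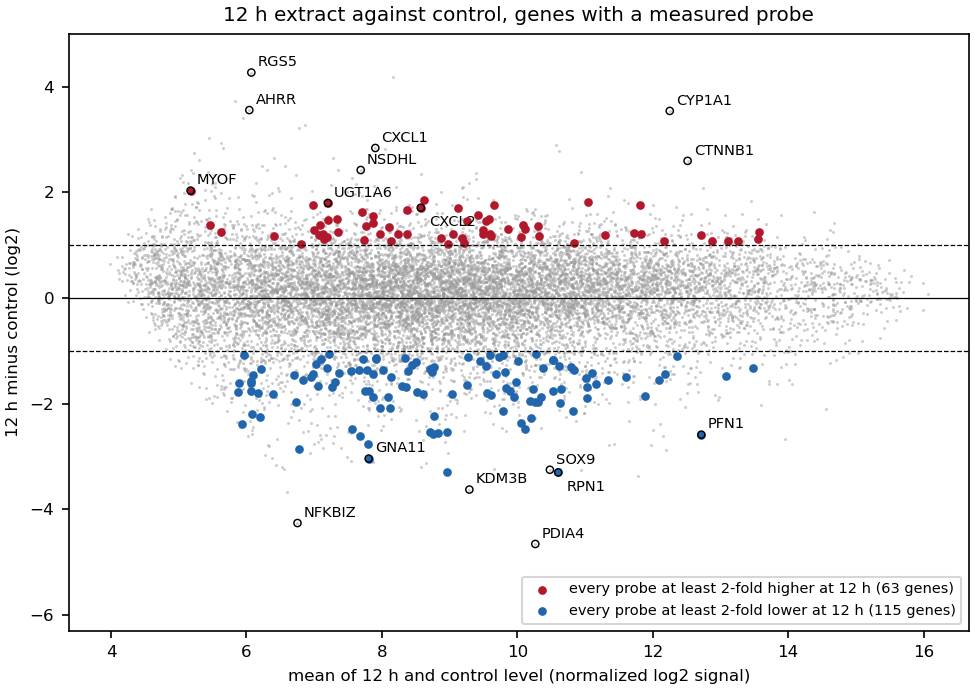
Difference of 12 h minus control (log2, vertical axis) against the mean of both levels (normalized log2 signal, horizontal axis) for 12617 genes, each the mean of its measured probes. Red points are the 63 genes whose 2 or more measured probes were all at least 2-fold higher, blue points the 115 whose probes were all at least 2-fold lower, and circled genes are named in the text; dashed lines mark 2-fold.

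The error of a gene was taken from pairs of probes. Of all measured genes, 8388 rested on 1 probe and 4229 on 2 or more. The scatter between probes of the same gene gave an SD of 0.68 for the difference of 1 probe, and it holds no spread between cultures, labellings or arrays. Every measured probe was at least 2-fold higher for 63 of the 4229 genes (1.49%) and at least 2-fold lower for 115 (2.72%). Of the 165 multi-probe genes whose mean was 2-fold higher, 38.2% met this stricter rule, and of the 336 whose mean was 2-fold lower, 34.2% did. Some of these probes overlap: the outermost measured probes lay within 60 bases, the length of a probe, in 7 of 62 agreeing higher genes and 8 of 114 agreeing lower genes with a known distance. Of the genes described next, this held for GNA11, PFN1, TMSB4X, MPP3, SPIN2B and ZNF79. Among 941 genes with 3 or more measured probes, 6 had all of them higher and 16 all of them lower.

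RPN1, a subunit of the enzyme that attaches sugar chains to new proteins in the endoplasmic reticulum, stood furthest below the control by the least of its probe differences. Its 3 probes differed by -2.84, -3.33 and -3.73, with a mean of -3.30 ± 0.26 (SE over 3 probes), or 9.86-fold. The gene's mean level was 8.95 at 12 h and 12.26 in control cells. The first 30 bases of each 60-base probe are given here, as the deposited files hold them, because these are separate stretches of 1 transcript that read the same way on both arrays.
RPN1 probe at -2.84: aaactcccattaaaaacaaaacatctttgt
RPN1 probe at -3.33: gtcaacaagagaataggcctttaccgtcac
RPN1 probe at -3.73: gcagattgggtggtagtgggaggttgtgca

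Other genes were lower by every probe too. PFN1, profilin, which loads actin monomers for filament growth, had a level of 11.42 at 12 h, against 14.01 in control cells, and its 2 probes differed by -2.48 and -2.70. TMSB4X, thymosin beta 4, which holds actin monomers in reserve, had 7.44 at 12 h and 9.98 in control cells (-2.54 ± 0.34, SE over 2 probes). All 3 probes of ACTB, beta-actin, were lower as well, with a mean level of 12.81 at 12 h, against 14.13 in control cells, and differences from -1.52 to -1.20. RHOA, a small GTPase that controls actin fibres, lay at 11.80 at 12 h and 12.90 in control cells by 3 probes (-1.1 ± 0.02, SE). KRT8, the keratin of simple epithelia, had 10.86 at 12 h and 12.35 in control cells (-1.49 ± 0.07, SE over 2 probes). ACTB is often used to scale expression data, and on these arrays it was 2.50-fold lower at 12 h. GAPDH, another gene used for that purpose, was saturated on the control array and gave no measured difference.

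SMARCA2, an ATPase that moves nucleosomes, had a level of 6.38 at 12 h, against 8.99 in control cells, and its 2 probes lay close together at -2.58 and -2.65. POGZ, a chromatin protein with zinc fingers, had 7.31 at 12 h and 10.61 in control cells, but its probes were further apart, at -2.52 and -4.09. NCOA3, a coactivator of nuclear receptors, had 7.08 at 12 h and 9.17 in control cells (-2.08 ± 0.18, SE over 3 probes). TEAD1, the DNA-binding partner of the growth regulator YAP, was at 6.33 at 12 h and 8.80 in control cells. HNRNPL and HNRNPH1 encode RNA-binding proteins that steer splicing. By 3 probes each, HNRNPL had 7.46 at 12 h and 10.05 in control cells, and HNRNPH1 had 8.87 at 12 h and 11.24 in control cells. EP300, a histone acetyltransferase, was lower by -1.97 ± 0.25 (SE over 2 probes). Of the 24 measured genes on the list of chromatin modifiers, which holds POGZ and EP300, 4 were at least 2-fold lower and 0 higher. Over all genes 8.46% were lower and 7.24% higher.

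GNA11, a G protein subunit that activates phospholipase C, had a level of 6.28 at 12 h and 9.33 in control cells (-3.04 ± 0.24, SE over 2 probes). MAP4K3, a kinase of amino acid signalling, was at 6.42 at 12 h and 9.18 in control cells, and its relative MAP4K4 was lower by -1.79 ± 0.27 over 4 probes. CSNK1G2, a membrane-bound casein kinase, had 9.07 at 12 h and 11.35 in control cells, with probes at -2.31 and -2.25. CMIP (8.88 at 12 h, 11.36 in control cells), NEDD1, which brings gamma-tubulin to the centrosome (5.08 and 7.34 in that order), ACBD3, a Golgi scaffold (7.54 and 10.11), and NKAPD1 (5.35 and 8.21) complete the 15 largest. RTN3, which shapes tubules of the endoplasmic reticulum, was lower on all 4 probes, from -4.03 to -1.71.

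**Figure D2:**
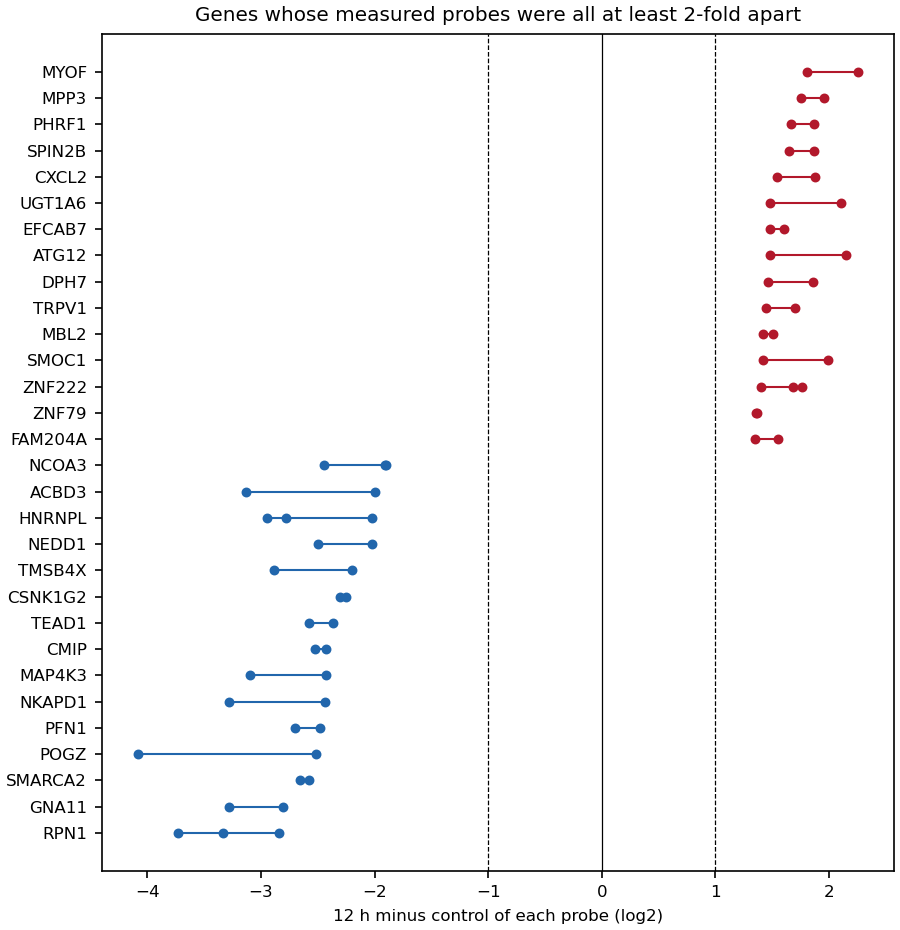
Difference of 12 h minus control (log2) of each measured probe, for the 15 genes with the largest agreeing differences on each side; points of a gene are its probes, joined by a line, and dashed lines mark 2-fold. Red genes are higher at 12 h and blue genes lower, and the blue differences reach further from 0, to -4.09 for POGZ, than the red ones, to 2.25 for MYOF.

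Agreeing differences above 0 were smaller. MYOF, myoferlin, a protein of membrane repair and fusion, had a level of 6.19 at 12 h, against 4.16 in control cells (2.03 ± 0.22, SE over 2 probes), which is low on the array, and with normexp background correction, which compresses dim signals, the difference was 0.70. With that correction 11 of the 15 largest agreeing differences above 0 kept a 2-fold mean, and all 15 of those below 0 did. MPP3, a membrane scaffold, had 9.55 at 12 h and 7.70 in control cells, and PHRF1, a ubiquitin ligase, had 12.69 at 12 h and 10.93 in control cells. ATG12, the ubiquitin-like protein that starts the elongation of autophagosomes, had 11.95 at 12 h and 10.14 in control cells, with probes at 1.48 and 2.15. MBL2, the liver's mannose-binding lectin, had 10.27 at 12 h and 8.80 in control cells, with probes at 1.42 and 1.51. TRPV1, an ion channel gated by heat and capsaicin, had 10.21 at 12 h and 8.64 in control cells. The remainder of the 15 were SPIN2B, CXCL2, UGT1A6, EFCAB7, DPH7, SMOC1, FAM204A and the zinc finger genes ZNF222 and ZNF79, with means from 1.36 (ZNF79) to 1.80 (UGT1A6). Of the 6 genes with 3 or more probes that were all higher, PSMC1, an ATPase of the proteasome, had the least scatter: its probes lay between 1.23 and 1.26, with a level of 14.19 at 12 h and 12.95 in control cells.

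Under 5 other scalings, background corrections or sources of the values, 26 of the 63 higher genes and 67 of the 115 lower genes kept a mean at least 2-fold apart in every one.

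Genes controlled by AhR were far apart from each other. Of 16 genes on the list, 12 were measured, 3 were at least 2-fold higher (CYP1A1, AHRR and UGT1A6) and 1 was at least 2-fold lower (CYP2S1). Over all genes 7.24% were that much higher and 8.46% that much lower. The list's median was -0.19, against 0.09 over all genes, and without the background filter it was 0.23. CYP1A1 was higher by 3.54 (11.6-fold) on its 1 probe, whose processed signal was 11500 units at 12 h and 1440 on the control array. AHRR was higher by 3.56 on its measured probe, and its other probe, which failed the background call in control cells, was at least 5.99-fold higher. With normexp correction the measured probe differed by 1.69. UGT1A6, which joins glucuronic acid to phenols, had a level of 8.10 at 12 h, against 6.30 in control cells, and both probes were higher, by 1.49 and 2.11, with a mean of 0.97 under normexp correction, just short of 2-fold. It shares its last exons with the other UGT1A genes, and which of them the probes read was not tested.

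The CYP1 relatives differed among themselves. CYP1A2, the liver's caffeine-oxidising P450, had 10.18 at 12 h and 10.73 in control cells, a difference of -0.56 that is within the probe error of 0.68, and without the background filter, which adds a dim probe, it was 0.94. CYP1B1, a P450 of tissues outside the liver, was well above background at 12 h alone and was at least 4.54-fold higher. ALDH3A1, an aldehyde dehydrogenase, was likewise at least 6.75-fold higher. Such bounds set the brighter array's level against the lowest level of any probe well above background on the dimmer side, or the dim probe's own level where that is higher. Measured levels were 5.91 at 12 h and 3.72 in control cells for CYP1B1, and 6.40 at 12 h and 3.6 in control cells for ALDH3A1. AHR itself had 10.65 at 12 h and 11.28 in control cells, its partner ARNT had 7.15 at 12 h and 6.52 in control cells, and TIPARP, a target that dampens the receptor, had 9.40 at 12 h and 9.79 in control cells. None of these 3 was 2-fold apart, and the difference of ARNT was -0.50 without the background filter.

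Promoters of the 3 higher AhR genes are printed because each holds the letters GCGTG, the core of the XRE, in capitals. They are RefSeq sequences on GRCh38.p14, from 250 bases before to 50 bases after the annotated start, read 5′ to 3′ on the gene's strand.
CYP1A1, chr15:74725479-74725778, minus strand: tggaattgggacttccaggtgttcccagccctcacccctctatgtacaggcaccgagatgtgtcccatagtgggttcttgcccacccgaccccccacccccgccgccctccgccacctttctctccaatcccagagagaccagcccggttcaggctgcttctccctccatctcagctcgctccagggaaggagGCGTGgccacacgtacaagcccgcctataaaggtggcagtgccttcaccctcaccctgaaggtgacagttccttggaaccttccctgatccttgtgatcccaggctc
AHRR, chr5:321464-321763, plus strand: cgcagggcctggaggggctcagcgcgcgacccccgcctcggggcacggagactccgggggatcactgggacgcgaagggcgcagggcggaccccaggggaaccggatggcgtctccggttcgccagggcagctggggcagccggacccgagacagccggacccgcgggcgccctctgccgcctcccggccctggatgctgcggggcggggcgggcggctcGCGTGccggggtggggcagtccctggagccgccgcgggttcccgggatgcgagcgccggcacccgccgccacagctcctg
UGT1A6, chr2:233691452-233691751, plus strand: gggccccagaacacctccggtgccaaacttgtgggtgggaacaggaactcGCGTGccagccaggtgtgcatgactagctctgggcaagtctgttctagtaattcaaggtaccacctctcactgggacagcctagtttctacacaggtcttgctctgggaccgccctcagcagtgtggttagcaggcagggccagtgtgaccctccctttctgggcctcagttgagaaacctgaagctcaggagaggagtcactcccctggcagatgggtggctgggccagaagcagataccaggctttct

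The match began 57 bases before the start in CYP1A1, 30 bases before it in AHRR and 200 bases before it in UGT1A6. GCGTG or its reverse complement was found in 36.3% of 27305 promoters of this length and in 49.0% of those of measured genes, so the match is common. It was found in 7 of 14 promoters of the AhR list, in 48.5% of promoters of genes 2-fold higher and in 49.9% of those 2-fold lower. A match of letters is a description of the window.

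Across the 6 arrays CYP1A1 had levels of 10.48 in control cells and 10.96, 13.38, 13.51, 14.02 and 13.86 at 1, 3, 6, 12 and 24 h, so the 12 h array held its highest value. AHRR had 4.26 in control cells and 4.01, 5.64, 8.63, 7.82 and 6.27 at those times, and its highest value was at 6 h. UGT1A6 had 6.30 in control cells and 6.34, 7.83, 7.14, 8.10 and 8.55. The highest levels of these 3 genes thus fell on 3 different arrays, with 1 array for each time. For CYP1A1 (14.02 and 13.86) and UGT1A6 (8.10 and 8.55) the 12 h and 24 h levels were close. They lay less than 0.68 apart, the SD for 1 probe's difference of 12 h minus control. The error of a difference between the 12 h and 24 h arrays was not estimated.

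**Figure D3:**
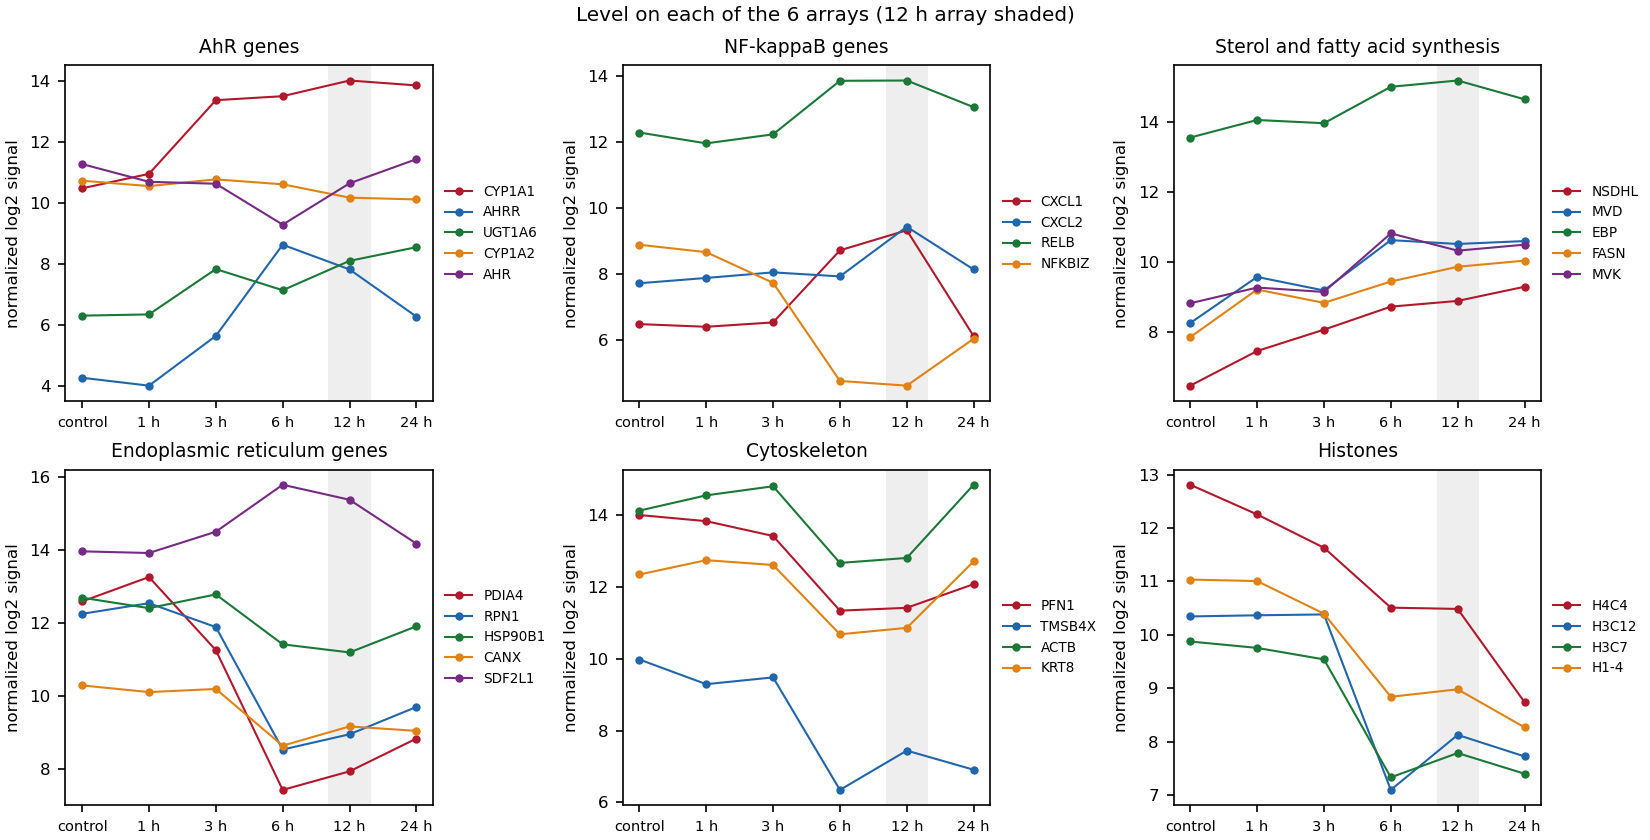
Levels (normalized log2 signal, vertical axis) on the control array and the 1, 3, 6, 12 and 24 h arrays, 1 array each, for genes of 6 groups; values are drawn whether or not the probe was well above background, and the 12 h array is shaded. CYP1A1 is higher at 12 h than in control cells, PDIA4, RPN1 and the histone genes are lower, and ACTB is lower at 6 h and 12 h but not at 24 h.

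Targets of NF-kappaB, a transcription factor of inflammation that many chemokine genes carry sites for, split in both directions. Of 20 listed genes 18 were measured, 3 were at least 2-fold higher and 3 at least 2-fold lower, with a median of 0.19. The shares over all genes were 7.24% and 8.46%, and the median of all genes was 0.09. CXCL1, a chemokine for neutrophils, had a level of 9.32 at 12 h, against 6.48 in control cells (2.84, or 1.85 with normexp correction). Its neighbour CXCL2 had 9.43 at 12 h and 7.72 in control cells, with probes at 1.54 and 1.87. RELB, a subunit of the factor, had 13.85 at 12 h and 12.28 in control cells. In contrast CXCL8, also a neutrophil chemokine, had 5.52 at 12 h and 7.06 in control cells, and TNFAIP3, an enzyme that restrains the pathway, had 9.40 at 12 h and 10.50 in control cells. NFKBIZ, an inducible cofactor in the nucleus, had 4.62 at 12 h, against 8.88 in control cells, 1 of the largest differences on the array (-4.26, or -2.22 with normexp correction). NFKBIA, the main inhibitor, lay at 0.67, and CXCL3 and CCL20 at -0.39 and -0.32.

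CXCL1 and CXCL2 on the higher side and NFKBIZ on the lower side each hold a match to the 10-letter NF-kappaB consensus site in the same promoter window, and are shown for that reason with the match in capitals. CXCL1 and CXCL2 hold it on both strands, overlapping, so their capitals run 1 base further.
CXCL1, chr4:73869143-73869442, plus strand: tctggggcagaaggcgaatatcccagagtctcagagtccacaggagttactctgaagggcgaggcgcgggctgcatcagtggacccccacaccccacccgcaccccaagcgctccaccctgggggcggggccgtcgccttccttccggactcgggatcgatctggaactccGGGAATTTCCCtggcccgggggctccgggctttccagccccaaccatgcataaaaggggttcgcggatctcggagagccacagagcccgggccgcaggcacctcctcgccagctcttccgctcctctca
CXCL2, chr4:74099146-74099445, minus strand: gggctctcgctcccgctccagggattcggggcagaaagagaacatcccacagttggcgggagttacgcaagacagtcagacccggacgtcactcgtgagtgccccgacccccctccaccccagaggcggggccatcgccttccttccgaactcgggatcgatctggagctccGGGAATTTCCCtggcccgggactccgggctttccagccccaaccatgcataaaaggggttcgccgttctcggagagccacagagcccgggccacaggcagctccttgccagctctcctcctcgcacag
NFKBIZ, chr3:101827740-101828039, plus strand: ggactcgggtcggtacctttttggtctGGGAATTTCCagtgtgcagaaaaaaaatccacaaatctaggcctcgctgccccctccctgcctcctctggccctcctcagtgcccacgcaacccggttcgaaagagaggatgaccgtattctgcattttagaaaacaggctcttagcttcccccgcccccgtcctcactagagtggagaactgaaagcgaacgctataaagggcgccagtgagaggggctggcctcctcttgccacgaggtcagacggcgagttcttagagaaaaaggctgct

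The match began 79 bases before the start in CXCL1, 78 in CXCL2 and 223 in NFKBIZ. On either strand the consensus was found in 5.72% of 27305 promoters and in 12 of 18 promoters of the NF-kappaB list. It was found in 6.89% of promoters of genes 2-fold higher and 6.46% of those 2-fold lower. Genes with a match thus lay on both sides of the control. A sterol regulatory element, written TCACNCCAC with N for any base, was found in 1.15% of all promoters and in 1 of 18 of the cholesterol list, and an antioxidant response element, TGACNNNGC, in 13.6% of all promoters and in 4 of 14 of the NRF2 list.

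Genes of cholesterol synthesis and uptake lay above the array's median as a list. This pathway, controlled by the sterol-sensing factor SREBP2, builds sterols from acetyl-CoA through mevalonate and squalene. Of 25 genes 24 were measured. At least 2-fold above the control lay 7, and 0 as far below it (7.24% and 8.46% over all genes). A difference above 0 was seen for 23, with a median of 0.64, against 0.09 over all genes. The median ranged from 0.47 to 1.02 over all settings tried. The 2-fold genes included NSDHL, MVD, EBP, MVK, STARD4 and ACAT2. NSDHL, which removes a methyl group of sterol intermediates, had a level of 8.90 at 12 h and 6.48 in control cells (2.42, or 5.36-fold, and 1.61 with normexp correction). MVD, which makes the isoprenoid unit from mevalonate, had 10.53 at 12 h and 8.27 in control cells, and EBP, a sterol isomerase, had 15.20 at 12 h and 13.57 in control cells. MVK, mevalonate kinase, was higher on both probes, by 1.22 and 1.79.

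FDFT1, squalene synthase, was the 1 gene of the cholesterol list below 0, at -0.28. The 18 measured genes of fatty acid and triglyceride synthesis had 0.17 as their median, and 3 were 2-fold or more higher and 0 lower (7.24% and 8.46% over all genes). Of these FASN, fatty acid synthase, had 9.87 at 12 h and 7.86 in control cells, FADS2, a desaturase, had 10.21 at 12 h and 9.03 in control cells with both probes higher, and ACACA, acetyl-CoA carboxylase, had probes at 0.69 and 1.58.

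PDIA4, a disulfide isomerase that folds proteins in the endoplasmic reticulum, gave the largest measured difference below 0. Its level was 7.94 at 12 h, against 12.59 in control cells (-4.66, or 25.2-fold lower), on 1 probe. Its relatives were closer to the control. Of 22 chaperone genes of that compartment, all measured, 3 were at least 2-fold lower (PDIA4, HSP90B1 and CANX) and 1 was higher (SDF2L1). The shares over all genes were 8.46% and 7.24%. The list's median was -0.09, and it was 0.25 under 75th percentile scaling. HSP90B1, the compartment's HSP90, had 11.20 at 12 h and 12.70 in control cells. CANX, the lectin calnexin, had 9.17 at 12 h and 10.29 in control cells, with probes at -1.16 and -1.09. SDF2L1, a partner of the chaperone BiP, had 15.38 at 12 h and 13.97 in control cells. HSPA5, BiP itself, had 1 probe at -0.87 and 1 at 0.63, so its mean of -0.12 stands for neither. DDIT3, the stress factor CHOP, had 9.69 at 12 h and 7.91 in control cells, while the 25 genes of the ATF4 response had a median of 0.003, with XPOT, a tRNA exporter, lower on both probes (-1.87 and -1.65).

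Replication-dependent histone genes had the lowest median of any list of 5 or more measured genes. They encode the histones that package new DNA, and their RNAs end in a stem-loop without a poly(A) tail. Of 54 on the array 49 were measured, 23 were at least 2-fold lower and 0 were higher, against 8.46% and 7.24% of all genes. Below 0 lay 44 of the 49, with a list median of -0.92, between -1.15 and -0.75 over all settings. H4C4, a core histone gene, had a level of 10.48 at 12 h, against 12.81 in control cells, and H3C12 had 8.13 at 12 h and 10.34 in control cells. The linker histone gene H1-4 had 8.98 at 12 h and 11.03 in control cells. Of the 7 with 2 or more probes, 2 had every probe at least 2-fold lower, among them H2AC14 at -1.88 ± 0.07 (SE over 2 probes). These genes are near copies, so 1 probe may read several of them. RNU12, a small nuclear RNA that also lacks a poly(A) tail, had 8.55 at 12 h and 11.01 in control cells. MALAT1, a long noncoding RNA, was the only other measured RNA listed as lacking the tail. Its probes lay on opposite sides of the control, at -2.88 and 0.73. How far the labelling depended on the tail was not tested.

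Genes of cell division otherwise lay near the array's median. DNA replication genes had a median of 0.15, with 1 of 32 higher and 1 lower, and mitosis genes had -0.13, with 2 of 28 higher and 2 lower. RRM2, the subunit of ribonucleotide reductase that cells make for replication, had 8.69 at 12 h and 10.53 in control cells (-1.83 ± 0.38, SE over 2 probes). TYMS, thymidylate synthase, lay the other way at 15.18 at 12 h and 14.21 in control cells. AURKB, a kinase of chromosome segregation, had 10.25 at 12 h, against 8.15 in control cells, and NUSAP1, a spindle protein, had 6.82 at 12 h, against 9.06. CDKN1B, the inhibitor p27, was lower on both probes (-1.64 and -1.04). CDKN1A, the inhibitor p21, had probes at -0.26 and 1.14. Among 21 measured p53 targets, 4 were at least 2-fold lower, TP53INP1 (-2.30), CCNG1 (-1.69), MDM2 (-1.24) and RRM2B (-1.14), and 1 was higher, where all genes gave 8.46% and 7.24%. The list's median was 0.36, against 0.09 over all genes, and 11 of the 21 lay above 0. Of apoptosis regulators BID, a death-promoting BCL2 relative, was higher on both probes (1.19 and 1.20), and BCL2, which protects from death, had 8.21 at 12 h and 9.60 in control cells.

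Immediate early genes, short-lived regulators that growth and stress signals switch on, were at least 2-fold lower for 8 of 27 and higher for 1, against 8.46% and 7.24% of all genes, with a median of -0.36. FOS and JUN, which form the factor AP-1, had levels of 7.84 and 11.02 at 12 h, against 9.93 and 13.03 in control cells. JUND had 13.51 at 12 h and 15.61 in control cells, and PIM1, a survival kinase, had 10.92 at 12 h and 13.31 in control cells. KLF2, a zinc finger factor, was the 1 higher gene, at 6.62 at 12 h and 4.64 in control cells. The response to hypoxia had 8 of 25 genes at least 2-fold lower and 1 higher (8.46% and 7.24% over all genes), with a median of -0.53. NDRG1, a growth-arrest gene, had 8.97 at 12 h and 10.68 in control cells with both probes lower, CA9, a carbonic anhydrase, had 8.81 at 12 h and 10.38 in control cells, and BNIP3L, a receptor for the removal of mitochondria, was lower on both probes (-1.98 and -1.11). The targets SLC2A1 and VEGFA lay at -0.05 and -0.11.

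WNT targets included 7 of 17 at least 2-fold lower and 0 higher, against 8.46% lower and 7.24% higher over all genes, with a median of -0.28. SOX9, a factor of progenitor and biliary cells, had a level of 8.86 at 12 h, against 12.11 in control cells (-3.25). LGR5, a receptor of stem cells, had 5.77 at 12 h and 8.14 in control cells, GLUL, glutamine synthetase, had 9.76 at 12 h and 11.62 in control cells, and the feedback gene AXIN2 was at -1.16 over 3 probes. NOTUM and RNF43, which also restrain the pathway, lay at 0.54 and 0.53. CTNNB1, beta-catenin, the pathway's effector, had 13.81 at 12 h and 11.22 in control cells on its measured probe (2.59). Its other probe was well above background on the control array alone, with 3.94 at 12 h and 6.48 in control cells, and was at least 4.80-fold lower. The 2 probes thus lay on opposite sides of the control.
CTNNB1 probe at 2.59: tgatcaaaaactatttgggatatgtatggg
CTNNB1 probe above background in control cells alone: agtttcctatgggaacaattgaagtaaact

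Proteasome, ribosome and mitochondrial genes lay above the array's median. Over all genes 7.24% were at least 2-fold higher and 8.46% at least 2-fold lower. The median of proteasome subunits was 0.53, and 5 of 32 were 2-fold or more higher and 0 lower, among them PSMC5 (11.04 at 12 h, 9.42 in control cells), PSMD2 (10.07 and 8.89 in that order) and PSMD13 (10.80 and 9.66). Ribosome biogenesis genes had 0.41, with 3 of 30 higher, near the 7.24% of all genes, and 0 lower: WDR46 had 8.87 at 12 h and 6.88 in control cells, RRP12 had 9.80 and 8.33, and NOP16 had 14.79 and 13.69. Mitochondrial ribosomal proteins had 0.34, with 7 of 36 higher and 1 lower, the 1 being MRPS27 (10.33 at 12 h, 12.16 in control cells). Oxidative phosphorylation genes had 0.15, near the 0.09 of all genes, with NDUFB3 at 14.67 at 12 h and 13.11 in control cells. Under 75th percentile scaling the proteasome median was 1.02.

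Genes of metabolism and liver function lay on both sides of the control. FOXO1, a factor that drives gluconeogenesis, was lower on both probes (-1.5 and -1.22), and its relative FOXO3 was too (-1.38 and -1.37), while G6PC1, the last enzyme of gluconeogenesis, had 8.27 at 12 h and 7.14 in control cells. HK2, a hexokinase, had probes at -3.07 and -0.75. INSR, the insulin receptor, was well above background on the control array alone and was at least 7.97-fold lower at 12 h. Both probes of PRKAA2, a catalytic subunit of the energy sensor AMPK, were well above background on that array alone too. By the larger of their bounds PRKAA2 was at least 4.11-fold lower at 12 h. PROX1 and ONECUT1, factors of hepatocyte identity, had 7.69 and 6.97 at 12 h, against 9.07 and 8.92 in control cells. HNF4A lay at 0.82 ± 0.20 (SE over 3 probes). SLC51A and SLC51B, the chains of the bile acid exporter of the basal membrane, were at -1.59 and -1.23, whereas SLC27A5, a bile acid ligase, was at 1.24. Of NRF2 targets, TXNRD1, thioredoxin reductase, had 5.98 at 12 h and 8.82 in control cells, OSGIN1 was at 1.18, and NQO1 and HMOX1 lay at -0.79 and 0.56, with a median of 0.31 over 19 genes.

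**Figure D4:**
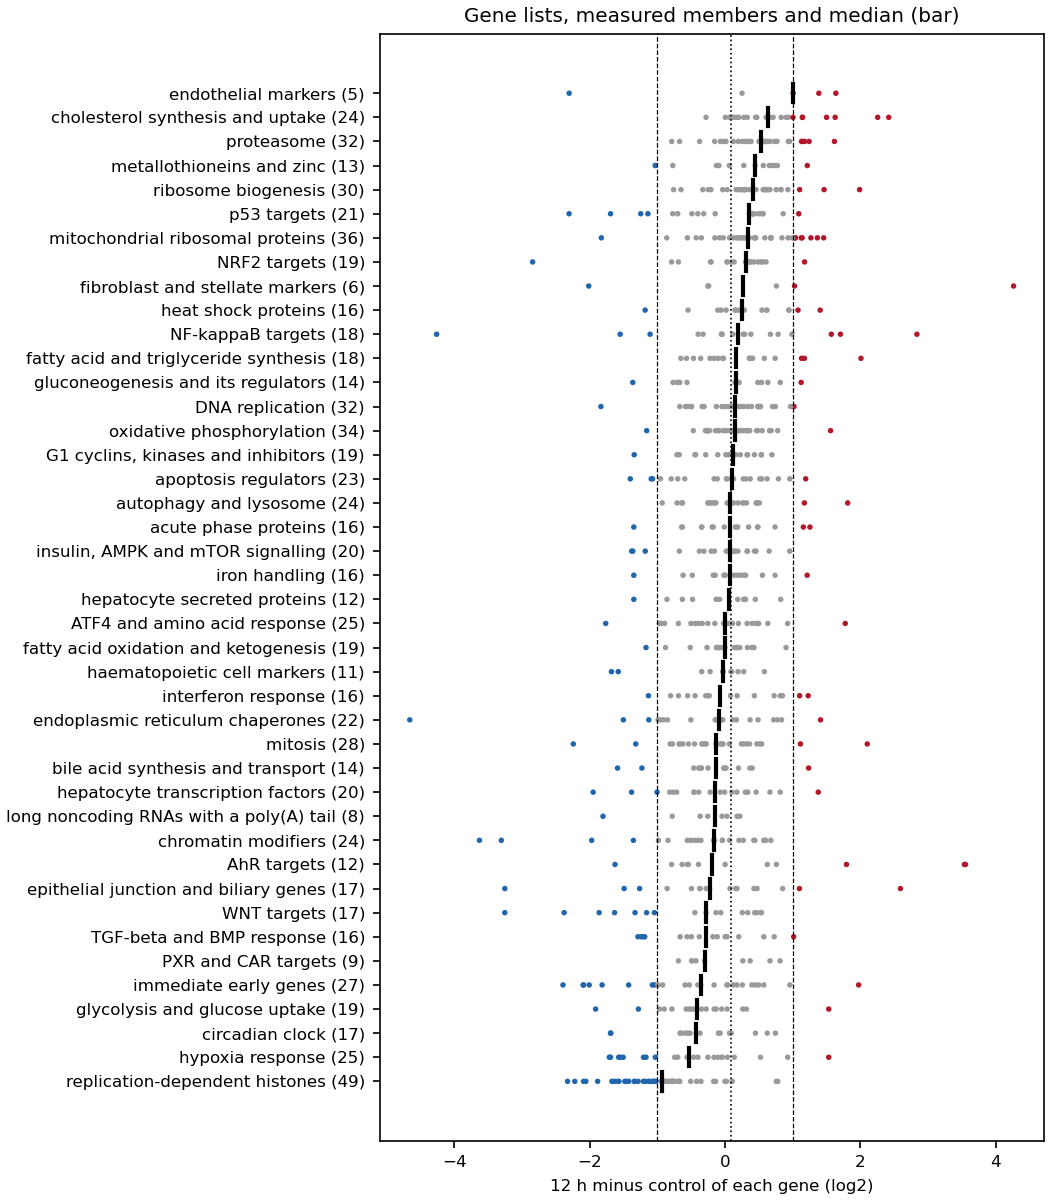
Difference of 12 h minus control (log2, horizontal axis) of each measured gene in the lists with 5 or more measured genes (number in brackets), ordered by list median (black bar); red points are at least 2-fold higher, blue points at least 2-fold lower, the dotted line is the median of all genes and dashed lines mark 2-fold. Histones have the lowest median, -0.92, and cholesterol genes the highest, 0.64, of lists with more than 5 genes.

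Some of the largest differences rested on 1 probe. RGS5, a regulator of G protein signalling, gave the largest difference above 0: 8.21 at 12 h, against 3.94 in control cells (4.27, or 2.03 with normexp correction). Its levels at 6 h and 24 h were 1.61 and 4.79, and its other probe, not well above background at 12 h, differed by -0.07. MAB21L2, a gene of eye and body-wall development, had 10.26 at 12 h and 6.07 in control cells, with 9.53 at 6 h. RGMA, a repulsive guidance molecule, had 7.69 at 12 h and 3.97 in control cells, and MYCNOS, an antisense transcript of MYCN, had 7.65 at 12 h and 4.24 in control cells. On the lower side HSD17B6, a steroid dehydrogenase, had 4.77 at 12 h and 8.44 in control cells, KDM3B, a histone demethylase, had 7.48 and 11.11, FAT1, a giant cadherin, had 10.09 and 13.47, and SRSF9, a splicing factor, had 9.31 and 12.57, in the same order. These 8 genes were picked from those that stayed 2-fold apart under every other scaling, background correction and source of the values. That they did so is therefore a condition of their choice and no further result.

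A further 258 genes were well above background at 12 h alone and 855 on the control array alone, and 202 and 125 of them had a bound of at least 2-fold. MYF5, a factor of muscle precursors, was at least 36.5-fold higher (level 8.83 at 12 h, 2.17 in control cells), STAB1, a scavenger receptor of sinusoidal endothelium, at least 28.0-fold, and NTF3, a nerve growth factor, at least 23.3-fold. HS3ST2, OR4N4, TRPM3, C1QTNF7 and CATSPERB followed, with bounds from 12.8-fold (CATSPERB) to 22.1-fold (HS3ST2). STAB1, OR4N4, TRPM3 and C1QTNF7 had other probes on the array that were well above background on neither array. On the lower side RNF182, a ubiquitin ligase, was at least 21-fold lower (level 2.0 at 12 h, 8.61 in control cells), RAP2A, a small GTPase, at least 18.9-fold, and SLC39A10, a zinc importer, at least 17.3-fold. STAT5A, which carries cytokine and growth hormone signals, was at least 12.5-fold lower by the larger of the bounds of its 2 probes. Neither of these probes was well above background at 12 h.

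For 53 genes, measured probes differed by 2-fold or more in opposite directions, so their means describe neither. PPAT, the first enzyme of purine synthesis, had probes at -3.09, -1.21 and 2.02. IL1RN, the interleukin-1 receptor antagonist, had probes at -3.58 and 1.07. MYC, a growth-promoting transcription factor, had a bright probe with 12.32 at 12 h and 13.75 in control cells and a dim one with 6.86 and 4.19, in that order. CTBP1, a corepressor, spanned -2.33 to 2.01 over 4 probes, OTUD7A -1.95 to 2.09 and ZSWIM1 -2.58 to 1.43. MALAT1, a nuclear long noncoding RNA, had 1 measured probe at -2.88 and 1 at 0.73. In 5 of these 6 protein-coding genes, all but ZSWIM1, the probe that was higher was also the dimmest measured probe of the gene on the control array.

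The other lists are given by their counts, at the same 2-fold limit. Over all genes 7.24% were higher and 8.46% lower, with a median of 0.09, and many of these small counts lie near those shares. Medians were 0.07 for acute phase proteins (2 of 16 higher, 1 lower), 0.06 for hepatocyte secreted proteins (0 of 12 higher, 1 lower), -0.14 for hepatocyte transcription factors (1 of 20 higher, 3 lower) and -0.13 for bile acid genes (1 of 14 higher, 2 lower). They were 0.11 for apoptosis regulators (1 of 23 higher, 3 lower), 0.12 for G1 cyclins, kinases and inhibitors (0 of 19 higher, 1 lower), 0.08 for autophagy and lysosome genes (2 of 24 higher, 0 lower) and 0.25 for heat shock proteins (2 of 16 higher, 1 lower). Interferon response genes had -0.07 (2 of 16 higher, 1 lower), metallothionein and zinc genes 0.45 (1 of 13 higher, 1 lower) and iron genes 0.07 (1 of 16 higher, 1 lower). TGF-beta and BMP response genes had -0.28 (1 of 16 higher, 4 lower), insulin, AMPK and mTOR genes 0.07 (0 of 20 higher, 3 lower) and chromatin modifiers -0.16 (0 of 24 higher, 4 lower). Fatty acid oxidation had -0.003 (0 of 19 higher, 1 lower), gluconeogenesis 0.17 (1 of 14 higher, 1 lower) and PXR and CAR targets -0.30 (0 of 9 either way). Glycolysis and glucose uptake had -0.42 (1 of 19 higher, 2 lower), clock genes -0.42 (0 of 17 higher, 2 lower) and epithelial junction and biliary genes -0.23 (2 of 17 higher, 3 lower). Long noncoding RNAs with a poly(A) tail had -0.15 (0 of 8 higher, 1 lower) and cancer-testis antigens 0.66 (2 of 4 higher, 0 lower). Markers of haematopoietic cells had -0.02 (0 of 11 higher, 2 lower), of fibroblasts and stellate cells 0.26 (2 of 6 higher, 1 lower) and of endothelium 1.01 (3 of 5 higher, 1 lower).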

How the data were processed

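Each deposited scanner file is of a one-colour Agilent array and holds intensity per spot. Per the file headers, the scanner software had subtracted background to give the processed signal used here, which is not scaled between arrays. RNA came from an RNeasy kit and was amplified and labelled with an Agilent linear amplification kit, per the labels' protocols, which also speak of mouse liver. Cy5 is the dye named in the labels, but the files hold green columns alone. The authors' deposited value table holds unscaled intensity that matched a spot's median signal minus its local background within 0.51 units. For slide, scan order and the build of the probe coordinates, the sources used here give nothing.

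Control spots (1639 per array) and flagged outlier spots were left out, which kept 40895 of 41000 probes. RefSeq tables of GRCh38.p14 gave 1 symbol for 26810 probes, several for 62 and none for 14128. Probes named by symbol alone that lie on another strand or chromosome than their gene (148) were left out of gene values. Log2 processed signal was averaged over the spots of a probe. Probe values were then quantile normalized over the 6 arrays in Python 3.11.15 (numpy 2.4.6, pandas 2.3.3), which limma 3.58.1 in R 4.3.3 matched. Measured probes were averaged per gene. The steps were tested on simulated data. No p-value was computed, since each group holds 1 array. The number of arrays limits the precision. Nothing says whether cultures were separate beyond the array titles.

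The genes, lists and tests were chosen with earlier results of these data known. Named genes were the 15 on each side with the largest least-probe difference among genes whose probes agreed, the 6 on each side with 1 probe that stayed 2-fold apart in all scaling, background and source settings, up to 4 per list by size, the 8 largest bounds on each side, the 6 widest opposite probes, and a set of AhR, lipid, chaperone and reference genes. Genes named beyond this rule (such as RHOA, HNRNPH1, MAP4K4, RTN3, KLF2, CXCL8, TNFAIP3, H2AC14, FDFT1 and list members close to the control) were chosen after their values were seen. Alternatives were 9 planned settings of scaling, background, source, filter and gene summary, and 3 added after seeing the data. Some members of the lists are not reported here by name.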

Additional observations from a re-analysis of the deposited data

Results flagged for a closer look

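A set of 65 measured probes carries the symbol of a gene but lies on that gene's other strand, by the probe's deposited position, and entered no gene value. At 12 h 32.3% of them were at least 2-fold higher and 10.8% at least 2-fold lower, with a median of 0.60. Of 13431 probes on the same strand and named by accession, 7.80% were at least 2-fold higher and 10.0% lower, with a median of 0.08. Same-strand probes named by symbol alone had 11.1% higher and 10.6% lower, and probes with no name here 15.8% and 12.7%. On the other arrays the share at least 2-fold higher was 0% (1 h), 1.52% (3 h), 63.8% (6 h) and 3.03% (24 h), so it was largest on the 6 h and 12 h arrays, which were the dimmest. At 24 h 24.2% of the set were at least 2-fold lower. The sense probe of ALB was saturated on both arrays and gives no difference to set beside them. Its 2 other-strand probes had levels of 12.46 and 7.55 at 12 h, against 10.57 and 6.00 in control cells. Their first 30 bases follow, with the sense probe's.
ALB sense probe: tgctttgccgaggagggtaaaaaacttgtt
ALB other-strand probe at 1.90: aaagggtatgaagtgatttgtcacaatttt
ALB other-strand probe at 1.55: attctcatggtaggctgagatgcttttaaa

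The part of array brightness, labelling and RNA of the other strand in these values was not tested. The set was noticed in these data and then counted on them.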

How the results depend on the processing

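No paired analysis was possible because each group holds 1 array, and for the same reason no array could be left out. The counts of genes at least 2-fold apart were most affected by background and filter. With normexp background 298 genes were higher and 481 lower, and every probe agreed for 17 and 50. The filter settings also changed the number of genes tested, which was 12617, with 4229 of 2 or more probes, in the values used here. With the brighter probes alone 484 of 7289 genes were higher and 574 lower. Every probe agreed for 21 and 45 of the 1416 genes with 2 or more probes there. Without the background filter 1637 of 17394 genes were lower, and 188 of 6711 by every probe. With 75th percentile scaling 131 genes were higher by every probe. Other counts lay within 1.5 times the values above. Over all settings 21 of 44 list medians had values on both sides of 0. Those further from 0 than the probe error of the median that changed sign were PXR and CAR targets (0.0655 with the brighter probes, 0.14 without the background filter), fatty acid and triglyceride synthesis (-0.0196 without that filter), p53 targets (-0.14 with the brightest probe of a gene), oxidative phosphorylation (-0.0116 after subtracting GC decile medians, a setting chosen after seeing the data) and epithelial and biliary genes (0.26 with 75th percentile scaling). Of 218 named genes 17 had values on both sides of 0, among them CYP1A2, ARNT, MYC, CDKN1A, SSX2 and ZSWIM1, and of those at least 2-fold apart MT1E turned, to 0.92 with its brightest, brighter or accession-named probe. GC correction left 36.5% of 2-fold genes on the higher side. The cause of these changes was not tested. Differences of dim genes shrank with normexp, AHRR to 1.69, CXCL1 to 1.85, NSDHL to 1.61 and RGS5 to 2.03 (2.10 without the background filter), while CYP1A1 stayed between 3.28 and 3.89 over all 13 settings.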
